A study of Mus musculus with 8 samples.

Results

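MHC class II antigen presentation was followed through the 7 genes H2-Aa, H2-Ab1, H2-Eb1, H2-DMa, H2-DMb1, Cd74 and Ciita, chosen by their symbols among the 19348 genes of the deposited tables. All 7 were found, and each was abundant enough to be tested in both tissues. RNA-seq had been carried out on a piece of liver and of epididymal white adipose tissue (eWAT) from male C57BL/6 mice aged 12 weeks, killed after a 16 h fast on a normal diet. Each tissue had 2 libraries with the genotype label Crtc1-/- and 2 with the label Crtc1+/+, called KO-labelled and WT-labelled here, 8 libraries in all. The line carries a whole-body CRISPR/Cas9 deletion within Crtc1, a coactivator of the transcription factor CREB, and the controls were littermates. Whether same-numbered samples of both tissues are from 1 animal is not said in the labels.

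Class II molecules show peptides of internalized antigens to CD4+ T cells. Their alpha and beta chains pair in the endoplasmic reticulum with the invariant chain (Cd74), which blocks the groove and leads the complex to endosomes, where cathepsins digest it. H2-DM, a dimer encoded by H2-DMa and H2-DMb1, then exchanges the remaining fragment for antigenic peptide. Dendritic cells, B cells and macrophages are the main sites of constitutive or induced expression, and in adipose tissue adipocytes can also carry class II. The whole set is switched on by the transactivator CIITA (Ciita), which does not bind DNA itself and is recruited by factors on the X and Y boxes of class II promoters, CREB among them. In C57BL/6 mice H2-Aa and H2-Ab1 form I-A, while the beta chain H2-Eb1 lacks its usual partner because the E alpha gene is not expressed.

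In the RefSeq gene table of GRCm38.p6, H2-Ab1 (chr17:34263227-34269418), H2-Aa (chr17:34282744-34287823), H2-Eb1 (chr17:34305867-34316674), H2-DMa (chr17:34119693-34139101) and H2-DMb1 (chr17:34153191-34160229) lie together in the major histocompatibility complex, with the DM beta paralog H2-DMb2 at chr17:34143229-34151553. Ciita lies at chr16:10480014-10531064. The longest annotated coding transcripts of H2-DMb1 and H2-DMb2 were identical at 1153 of 1219 aligned bases (94.6%). Counts of these paralogs were not whole numbers in 6 of 8 libraries each, and the counts of the other 6 members were whole in all 8.

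The 130 bases just before the start site show where factors meet at class II genes, and those of 4 genes are printed 5′ to 3′ on the coding strand from RefSeq promoters of GRCm38.p6, which held 4 of the 7 members (H2-Aa, H2-Eb1, H2-DMa and H2-DMb1). Capitals mark letters of an X box, searched as AAC, any 3 bases and TGATGC, of a Y box, searched as GATTGG, or of the cyclic AMP response element TGACGTCA, each on both strands. The letters were chosen after these promoters had been read. H2-Aa is from chr17:34287824-34287953 (minus strand), H2-Eb1 from chr17:34305737-34305866, H2-DMb1 from chr17:34153061-34153190 and H2-DMb2 from chr17:34145119-34145248 (all plus strand).
H2-Aa: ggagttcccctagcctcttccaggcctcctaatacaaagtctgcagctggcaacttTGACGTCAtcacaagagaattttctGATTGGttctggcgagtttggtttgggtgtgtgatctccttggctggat
H2-Eb1: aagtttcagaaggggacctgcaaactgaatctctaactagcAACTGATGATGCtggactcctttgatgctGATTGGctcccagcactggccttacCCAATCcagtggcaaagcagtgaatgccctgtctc
H2-DMb1: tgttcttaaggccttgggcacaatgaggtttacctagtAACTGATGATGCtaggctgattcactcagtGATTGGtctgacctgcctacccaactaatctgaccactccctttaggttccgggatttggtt
H2-DMb2: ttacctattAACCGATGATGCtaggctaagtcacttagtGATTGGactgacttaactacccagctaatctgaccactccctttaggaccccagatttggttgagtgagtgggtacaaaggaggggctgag

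The X box pattern lay 89 to 78 bases before the start of H2-Eb1, 92 to 81 before H2-DMb1 and 121 to 110 before H2-DMb2, each followed by a Y box. H2-Aa held no match to that pattern in this window, but a Y box 49 to 44 bases before its start and the cyclic AMP response element, the site that CREB binds, 74 to 67 bases before it. Among all 32851 promoters, 0.113% held the X box pattern in the 250 bases before the start, 14.6% the Y box and 1.55% the cyclic AMP response element. An X box together with a Y box was found in 7 promoters, of which 4 belonged to H2-Eb1, H2-DMb1, H2-DMb2 and H2-Ob. Upstream of their starts H2-DMb1 and H2-DMb2 were identical at 174 of 209 aligned bases. The promoters of H2-DMa, from 2 start sites, held none of the 3 motifs in the 130 bases and, in 250 bases, 1 Y box 199 to 194 bases before a start. These matches are a description of letters and show no binding.

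Libraries held 16560070 to 19721464 counts. Crtc1, counted over the whole gene of which only a part is deleted, was not lower in the KO-labelled libraries. It stood at 22.1 and 18 CPM (counts scaled to a common library size) there against 11.7 and 9.86 in WT-labelled liver, and at 58.5 and 33.6 against 32.6 and 33.7 in eWAT, so that the counts do not check the labels. Of the 4 eWAT libraries, 3 stood apart from the tissue named. The 12 epididymis epithelium markers summed to 75100 and 87627 CPM in the WT-labelled eWAT libraries against 22.4 and 11.1 in the KO-labelled ones, and the 10 adipocyte markers to 2207 and 3515 against 40867 and 19361. In KO-labelled eWAT replicate 2, the 10 hepatocyte markers summed to 90175 CPM, against 932 in replicate 1. They summed to 5269 and 664 CPM in the WT-labelled eWAT libraries. Each eWAT result below therefore compares tissue pieces of different makeup, and fewer cells of a type and less RNA per cell cannot be told apart in bulk samples.

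The classical chains were higher in KO-labelled eWAT, without passing the test. H2-Aa, the alpha chain of I-A, stood at 1073 and 396 CPM in KO-labelled eWAT and at 158 and 73.3 CPM in WT-labelled eWAT. Both KO-labelled libraries lay above both others, 6.34-fold in the fit (log2 fold change 2.66 ± 0.69 SE, edgeR adjusted p = 0.0691). H2-Ab1, its beta chain, was measured at 988 and 394 against 160 and 62.8 CPM (2.63 ± 0.71, edgeR adjusted p = 0.0750). H2-Eb1, the beta chain of I-E, had 654 and 257 against 95.6 and 42.4 CPM (2.72 ± 0.67, edgeR adjusted p = 0.0626). The 3 chains kept nearly the same fold although replicates within a genotype differed by 2.16 to 2.71 times, replicate 1 being the higher of each pair.

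Cd74, the invariant chain and the most abundant member, was measured at 1751 and 621 CPM in KO-labelled eWAT and at 411 and 163 CPM in WT-labelled eWAT. The groups did not overlap, and the difference was 2.05 ± 0.74 on the log2 scale (edgeR adjusted p = 0.133). Ciita stood at 9.12 and 4.03 CPM against 4.24 and 1.09 CPM, so that its groups overlapped (1.30 ± 0.87, edgeR adjusted p = 0.334).

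The H2-DM chains did not follow the classical chains in eWAT. H2-DMa, the alpha chain of the peptide exchanger, had 80.9 and 28.0 CPM in KO-labelled eWAT and 54.1 and 37.9 CPM in WT-labelled eWAT. The KO-labelled libraries lay on both sides of the others (0.24 ± 0.56, edgeR adjusted p = 0.783), and the sign turned under library-size scaling and in limma on FPKM. H2-DMb1, its beta chain, had 81.9 and 26.9 against 40.5 and 30.3 CPM, again with overlap (0.62 ± 0.58, edgeR adjusted p = 0.477). H2-DMb2 stood the other way, at 3.57 and 0.764 CPM against 28.0 and 25.2 CPM (-3.60 ± 0.80, edgeR adjusted p = 0.0514; DESeq2 adjusted p = 2.58e-05). edgeR also called H2-DMb2 lower with all 8 libraries in 1 fit (edgeR adjusted p = 0.0158), without the filter and with library-size or upper-quartile scaling. Both limma fits on FPKM called it too, and edgeR with the replicate number as a block did not (edgeR adjusted p = 0.0665). H2-DMb2 shares reads with H2-DMb1, as given above, and was high in the 2 libraries that hold the epididymis markers, whose part in this difference was not tested.

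**Figure D1:**
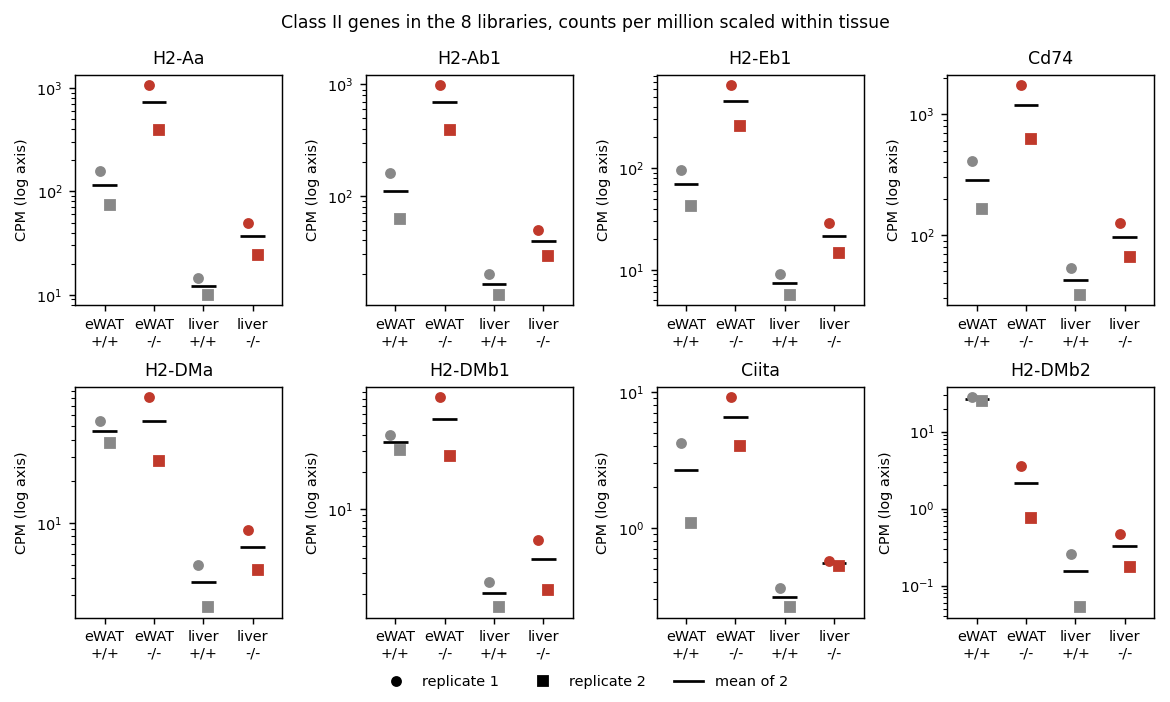
CPM of the 7 members and of H2-DMb2 in each library on log axes, scaled by TMM within each tissue, so that heights compare genotypes and not tissues. Circles and squares are replicates 1 and 2 (grey, WT-labelled; red, KO-labelled) and bars are means of 2; H2-Aa at 1073 and 396 CPM lies above 158 and 73.3 CPM in eWAT, while H2-DMb2 lies below.

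Counted together, 0 of 7 members passed an adjusted p under 0.05 in eWAT by edgeR, where 12.2% of all genes did, in either direction. At an unadjusted p under 0.05, 4 were higher in KO-labelled libraries (H2-Aa, H2-Ab1, H2-Eb1 and Cd74) beside 16.2% of all genes, and the same 4 had groups without overlap beside 31.3%. H2-Eb1 alone met the threshold of the study, unadjusted p under 0.01 and log2 change beyond 1 in size (8.37% of all genes on the higher side). DESeq2 called H2-Aa, H2-Ab1, H2-Eb1 and Cd74 (15.3% of all genes on the higher side), and limma on FPKM called none. The median of the 7 was 2.05 on the log2 scale, beside -0.05 for all 15391 genes tested. The call depended on 1 library, since without KO-labelled eWAT replicate 2, the one with hepatocyte markers, the 3 chains and Cd74 passed (H2-Aa 3.2, edgeR adjusted p = 0.0141). The library left alone is then assumed to vary like the other group. Without KO-labelled replicate 1 the differences were 1.78 for H2-Aa, 1.12 for Cd74 and 0.61 for Ciita, and without WT-labelled replicate 1 they were 3.29, 2.82 and 2.56, none of them passing. With library-size scaling the median of all genes in eWAT moved from -0.05 to -0.35, and no member was called.

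In liver the same 4 genes were higher in the KO-labelled libraries, again without passing the test, at levels far below those of eWAT. H2-Aa had 49.9 and 24.4 CPM against 14.4 and 9.97 CPM in WT-labelled liver, 3.05-fold in the fit (1.61 ± 0.37, edgeR adjusted p = 0.124). H2-Ab1 had 49.8 and 28.9 against 19.8 and 13.0 CPM (1.26 ± 0.34, edgeR adjusted p = 0.159). H2-Eb1 had 28.7 and 14.5 against 9.14 and 5.67 CPM (1.54 ± 0.39, edgeR adjusted p = 0.138). In each of the 3 chains both KO-labelled libraries exceeded both WT-labelled ones. Cd74 had 126 and 66.1 against 53.6 and 32.0 CPM, without overlap (1.17 ± 0.37, edgeR adjusted p = 0.195).

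The H2-DM chains and Ciita were low in liver. H2-DMa had 8.86 and 4.55 CPM against 4.98 and 2.47 CPM, with overlap (0.85 ± 0.45, edgeR adjusted p = 0.350). H2-DMb1 had 5.61 and 2.16 against 2.52 and 1.57 CPM, also with overlap (0.93 ± 0.51, edgeR adjusted p = 0.367). Ciita rested on 11 and 9 counts in KO-labelled liver and on 7 and 5 counts in WT-labelled liver, or 0.577 and 0.525 against 0.359 and 0.262 CPM (0.81 ± 0.57, edgeR adjusted p = 0.473). H2-DMb2 had 9, 3, 5 and 1 counts and was not tested in liver.

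In liver 0 of 7 members passed an adjusted p under 0.05 by edgeR, where 0.0854% of all 11707 genes did (0.0598% on the higher side). At an unadjusted p under 0.05, H2-Aa, H2-Ab1, H2-Eb1 and Cd74 were higher (4 of 7, beside 9.73% of all genes), and 5 of 7 had groups without overlap, Ciita being the fifth, beside 25.8%. The threshold of the study was met by H2-Aa, H2-Ab1 and H2-Eb1 (2.84% of all genes on the higher side), and DESeq2 called these and Cd74 (1.49%). The median of the 7 was 1.17 on the log2 scale, beside 0.00 for all genes. Single libraries moved the call, since 4 members passed without KO-labelled liver replicate 2 and 2 (H2-Aa and H2-Eb1) without replicate 1, where H2-Aa was at 2.03 and 1.01. H2-Aa and H2-Eb1 also passed with the replicate number as a block, at edgeR adjusted p = 0.0356 and 0.0369. The genotype differences in both tissues stand side by side in the plot of fold changes.

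**Figure D2:**
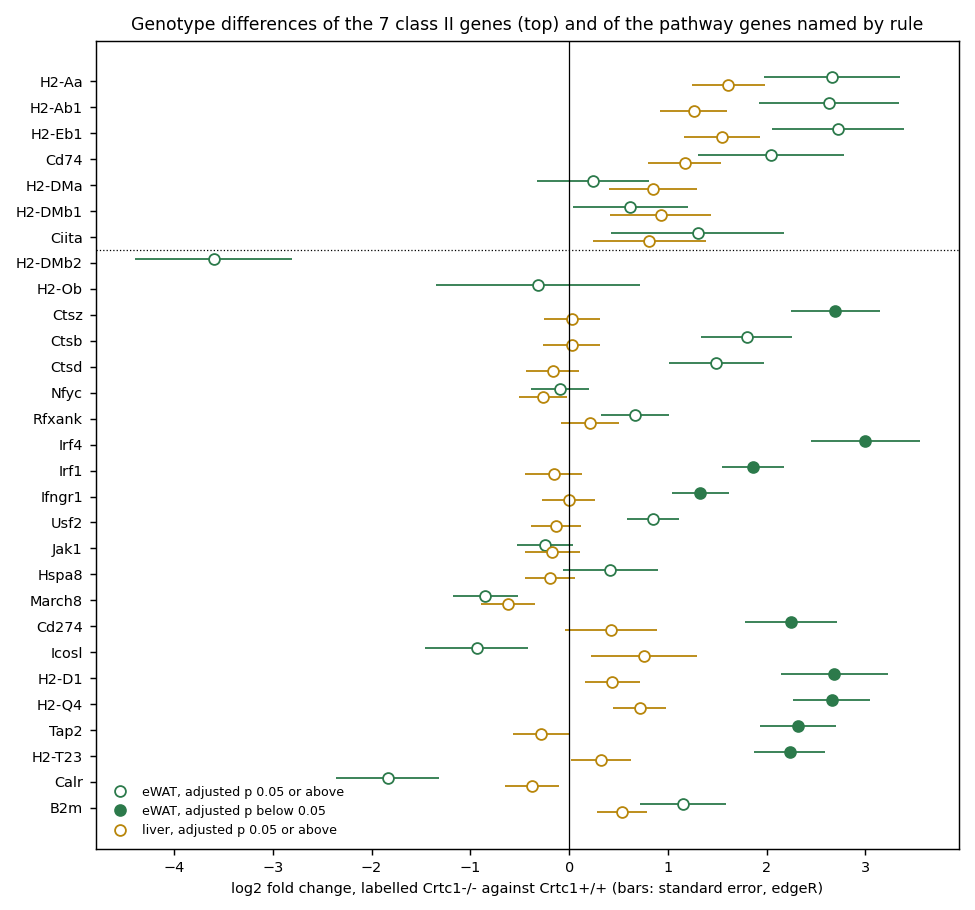
Log2 fold changes of KO-labelled against WT-labelled libraries with their standard errors (edgeR), for the 7 members above the dotted line and the pathway genes named by rule below it, in eWAT (green) and liver (ochre). Filled points passed an adjusted p under 0.05; none of the members did, and Irf4, Ctsz, H2-D1, H2-Q4, Tap2, Cd274, H2-T23, Irf1 and Ifngr1 did in eWAT.

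Whether the genotype difference itself differed between tissues was tested in 1 fit of all 8 libraries. No member passed (0 of 7 by edgeR, 0 of 7 by DESeq2), while 6.94% of all genes did. The difference in eWAT exceeded that in liver by 1.24 ± 0.84 for H2-Ab1 on the log2 scale (edgeR adjusted p = 0.374), and it was smaller by 0.74 ± 0.79 for H2-DMa in the fit (edgeR adjusted p = 0.584). The median of the 7 was 0.74 and that of all genes -0.21. With 2 libraries a group these errors leave room for differences of either sign.

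Per length, eWAT exceeded liver for every member in the deposited FPKM. H2-Aa reached 1142 and 346 FPKM in KO-labelled eWAT and 195 and 87.6 FPKM in WT-labelled eWAT, against 54.3 and 26.9 and 15.4 and 10.6 FPKM in liver. Summed over the 7 members, KO-labelled eWAT had 4164 and 1270 FPKM, WT-labelled eWAT 945 and 402, KO-labelled liver 247 and 131, and WT-labelled liver 92.8 and 57.8. The 4 groups thus did not overlap in this sum, and in each tissue the lower KO-labelled library lay above the higher WT-labelled one. The ratio of the means of the sum was 4.04 ± 3.81 (propagated SD, n = 2 each) between the genotypes in eWAT.

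Between tissues within a genotype, edgeR called H2-Aa, H2-Eb1, H2-DMa and H2-DMb1 higher in eWAT among WT-labelled libraries (4 of 7, beside 35% of all genes), and H2-Aa, H2-Ab1, H2-Eb1, H2-DMb1 and Cd74 among the KO-labelled ones (5 of 7, beside 18.9%). The largest of these differences was H2-Eb1 in KO-labelled libraries (3.06 ± 0.63 on the log2 scale, edgeR adjusted p = 0.0154), and among WT-labelled libraries H2-DMb1 (2.90 ± 0.63, edgeR adjusted p = 0.00943). Cd74 missed the threshold in WT-labelled libraries (1.54 ± 0.67, edgeR adjusted p = 0.0854; 0.0260 with the replicate block). Ciita missed it in both (edgeR adjusted p = 0.0868 and 0.0736). The median of all genes was itself at 0.61 among WT-labelled libraries and at 0.20 among the KO-labelled ones, and library-size scaling moved it to 2.0 and 1.33, so these tissue differences are to be read against that shift. The counts of calls fell to 0 without WT-labelled liver replicate 2 in the former comparison, to 1 without WT-labelled eWAT replicate 1 and to 2 without WT-labelled liver replicate 1. In the latter they fell to 0 without either KO-labelled liver library and to 3 without KO-labelled eWAT replicate 1.

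The order of levels was nearly shared by the groups. Cd74 was the highest member in all 4, with a mean of 999 ± 777 FPKM (SD, n = 2) in KO-labelled eWAT, 294 ± 186 in WT-labelled eWAT, 88.1 ± 38.1 in KO-labelled liver and 37.9 ± 13.5 in WT-labelled liver. H2-Aa and H2-Ab1 followed, with ranges that overlapped in each group, and then H2-Eb1. H2-DMa and H2-DMb1 came next and overlapped each other in each group. Ciita was the lowest throughout, at 0.985 ± 0.643 FPKM in KO-labelled eWAT, 0.485 ± 0.403 in WT-labelled eWAT, 0.0950 ± 0.0071 in KO-labelled liver and 0.05 ± 0.014 in WT-labelled liver. H2-Eb1 lay apart from the H2-DM chains in 3 groups but overlapped both of them in WT-labelled eWAT.

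**Figure D3:**
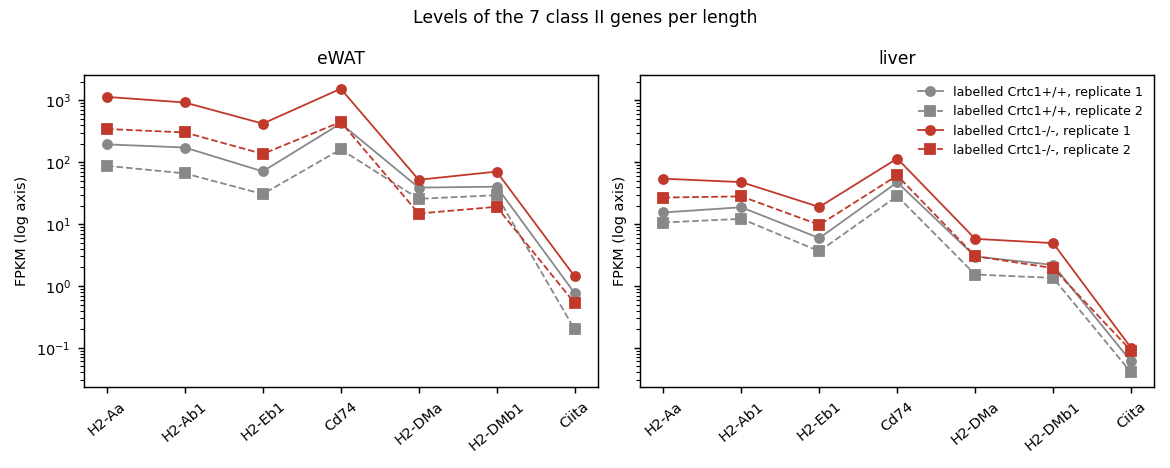
FPKM of the 7 members on a log axis in each eWAT library (left) and each liver library (right), lines joining the members of 1 library (grey, WT-labelled; red, KO-labelled; solid, replicate 1; dashed, replicate 2). Lines run in parallel over H2-Aa, H2-Ab1 and H2-Eb1 and cross at H2-DMa and H2-DMb1 in eWAT, and Cd74 is the highest and Ciita the lowest member of every library.

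Ratios within a library remove its overall class II level and show which genes kept step. H2-Eb1 made up 34.3% to 39.5% of the FPKM of H2-Aa in the 8 libraries, whether class II was high or low, and H2-Ab1 75.5% to 121%. Cd74 stood at 136% and 130% of H2-Aa in KO-labelled eWAT, 218% and 185% in WT-labelled eWAT, 212% and 228% in KO-labelled liver and 308% and 268% in WT-labelled liver. The share of Cd74 was thus lower in the KO-labelled libraries of each tissue, with no overlap.

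H2-DM varied most against the chains it serves. H2-DMa and H2-DMb1 together stood at 4.93% and 4.31% of the summed FPKM of H2-Aa, H2-Ab1 and H2-Eb1 in KO-labelled eWAT, and at 18% and 29.9% in WT-labelled eWAT. In liver they stood at 8.85% and 7.69% in KO-labelled libraries and at 12.9% and 10.9% in the WT-labelled ones. The groups did not overlap in either tissue, and WT-labelled eWAT was the highest of the 4. With 2 against 2 an exact permutation test cannot go below 0.333, so no test was made. H2-DMb2 stood at 123% and 148% of H2-DMb1 in WT-labelled eWAT and between 5.09% and 18.3% in the other 6 libraries. The libraries with the high H2-DM shares were those with the epididymis markers, whose part in these ratios was not tested.

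**Figure D4:**
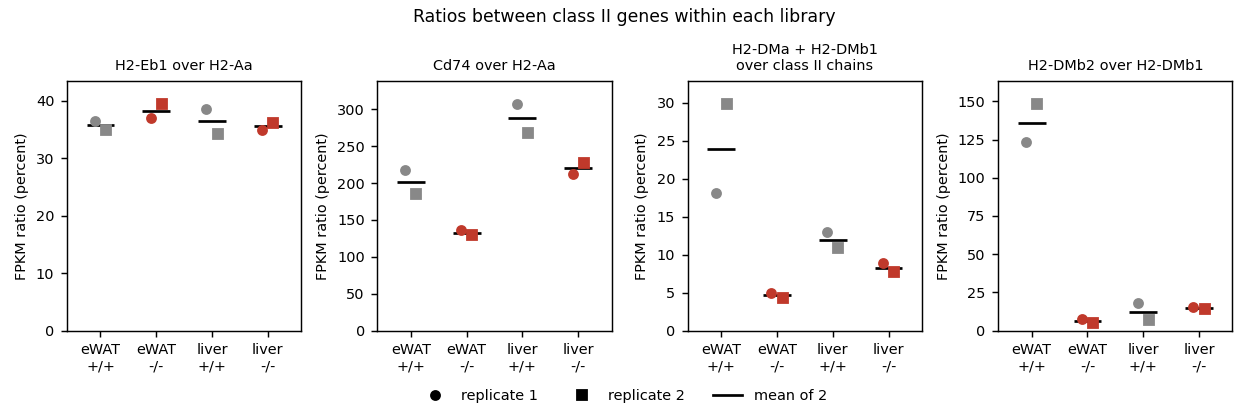
Ratios of FPKM between class II genes within each library, in percent, with axes from 0 (circles and squares, replicates 1 and 2; bars, means of 2; grey, WT-labelled; red, KO-labelled). H2-Eb1 over H2-Aa stays between 34.3% and 39.5%, while H2-DM over the class II chains is at 18% and 29.9% in WT-labelled eWAT and at 4.93% and 4.31% in KO-labelled eWAT.

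Over the 8 libraries, log2 CPM of H2-Aa went with that of H2-Eb1 (Pearson r = 0.999), H2-Ab1 (0.994), Cd74 (0.991) and Ciita (0.952), and less closely with H2-DMb1 (0.865) and H2-DMa (0.829). H2-DMa and H2-DMb1 went together (0.986). The 8 points fall into 2 tissues, so these values describe mostly the gap between them. Among 11013 genes outside the members, the 8 most like their mean standardized level were Wdr93 (r = 0.996), Cst3 (0.992), Emp3 (0.988), Gpx7 (0.985), Sp110 (0.984), Relb (0.984), Rgs10 (0.979) and Ppp1r18 (0.978), over the same 8 libraries. Cst3 encodes cystatin C, an inhibitor of cysteine cathepsins, and Relb a subunit of NF-kappaB. Wdr93 had 10.5 and 5.61 CPM in KO-labelled eWAT, 4.53 and 1.91 in WT-labelled eWAT, 2.52 and 1.52 in KO-labelled liver and 1.27 and 0.733 in WT-labelled liver, scaled over all 8. Without KO-labelled eWAT replicate 2, 4 of the 8 stayed among the top 8.

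Of 60 further genes of the pathway and of its class I counterpart, 56 were tested in eWAT, of which 11 were higher in KO-labelled libraries and 0 lower by edgeR at an adjusted p under 0.05, beside the 12.2% of all genes called there. In liver 0 of 50 passed in either direction. The median was 0.65 in eWAT and 0.03 in liver. All 11 calls in eWAT were lost when either WT-labelled library was left out and with the replicate number as a block, fits in which 0 of all genes passed, while leaving out KO-labelled eWAT replicate 2 kept 8. The background lists that hold class II cells moved as well, and are given after these genes.

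Among the factors that induce Ciita, 3 of 11 tested were called higher in KO-labelled eWAT by edgeR, beside 6.65% of all genes. Irf4, an interferon regulatory factor of lymphoid cells, macrophages and adipocytes, stood at 12.5 and 21.2 CPM in KO-labelled eWAT against 2.65 and 1.56 CPM (3.0 ± 0.55, edgeR adjusted p = 0.0355). Irf1, which carries the interferon gamma signal to the Ciita promoter, had 117 and 90.6 against 32.4 and 24.7 CPM (1.86 ± 0.31, edgeR adjusted p = 0.0299). Ifngr1, a chain of the interferon gamma receptor, had 196 and 164 against 64.9 and 78.5 CPM (1.33 ± 0.29, edgeR adjusted p = 0.0494). In all of them each KO-labelled library exceeded both others. Usf2, which binds a Ciita promoter, had a log2 fold change of 0.85 (edgeR adjusted p = 0.0980), and Jak1, the receptor's kinase, of -0.24 (edgeR adjusted p = 0.567). In liver Irf1 was at 17.7 and 21.0 against 25.9 and 17.1 CPM, and its genotype difference was larger in eWAT than in liver by 1.93 ± 0.39 (edgeR adjusted p of the interaction = 0.0350). Ifng itself was listed at 0 counts in 4 of 8 libraries.

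Of the 8 factors that assemble on class II promoters none was called in either tissue by edgeR within tissue. Nfyc, a subunit of the Y box factor NF-Y, had 58.3 and 43.5 against 57.7 and 50.6 CPM in eWAT (-0.09 ± 0.29, edgeR adjusted p = 0.849). Rfxank, a subunit of the X box factor RFX, had 36.8 and 33.8 against 26.6 and 18 CPM (0.66 ± 0.34, edgeR adjusted p = 0.238). Rfxap, another subunit of RFX that was named after its values were seen, had 28.5 and 30.5 against 10.5 and 12.9 CPM in eWAT (1.34 ± 0.33, edgeR adjusted p = 0.0638) and 4.98 and 4.26 against 6.21 and 5.93 CPM in liver. Its genotype difference was larger in eWAT than in liver by 1.66 ± 0.36 (edgeR adjusted p of the interaction = 0.0426). In eWAT, edgeR called Rfxap higher with all 8 libraries in 1 fit (1.26, edgeR adjusted p = 0.0151). So did DESeq2 (DESeq2 adjusted p = 0.0027) and limma with 1 added (limma adjusted p = 0.0473).

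Among 9 antigen processing proteases and their partners, Ctsz alone was called in eWAT by edgeR within tissue. Ctsz, the carboxypeptidase cathepsin Z, had 331 and 406 CPM against 75.1 and 38.6 CPM (2.70 ± 0.45, edgeR adjusted p = 0.0296), and 403 and 305 against 404 and 291 CPM in liver. Cathepsins B and D, the most abundant of the list, also had groups without overlap in eWAT. Ctsb stood at 2689 and 1849.6 against 721 and 585 CPM (1.80 ± 0.46, edgeR adjusted p = 0.0663), and Ctsd had a log2 fold change of 1.49 ± 0.48 (edgeR adjusted p = 0.106). DESeq2 called both higher (DESeq2 adjusted p = 1.7e-06 for Ctsb and 0.00081 for Ctsd). Ctsb was also called by edgeR without the filter and with all 8 libraries in 1 fit, and by limma with 1 added. In liver their log2 fold changes were 0.02 and -0.17.

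Of the costimulators, 1 of 4 tested was called higher in KO-labelled eWAT by edgeR, beside 6.65% of all genes. Cd274, which encodes the inhibitory ligand PD-L1, had 13.7 and 10.8 against 2.36 and 2.80 CPM (2.24 ± 0.47, edgeR adjusted p = 0.0449). Icosl, the ligand of the T cell costimulator ICOS, lay the other way at 22.8 and 8.96 against 32.5 and 28.5 CPM (-0.94 ± 0.53, edgeR adjusted p = 0.263). Of 5 genes of class II turnover and trafficking none was called in eWAT by edgeR. March8, a ubiquitin ligase of class II and other surface proteins, stood lower in both tissues without passing the test (-0.85 ± 0.33 in eWAT, edgeR adjusted p = 0.147; -0.62 ± 0.28 in liver, edgeR adjusted p = 0.290). Hspa8, a cytosolic chaperone, had 0.42 ± 0.48 in eWAT (edgeR adjusted p = 0.565). The B cell chain H2-Ob, part of the H2-O dimer that restrains H2-DM, overlapped at 3.57 and 1.74 against 5.73 and 0.882 CPM.

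The class I pathway, which shows peptides of the cytosol to CD8+ T cells, had 6 of 16 genes called higher in eWAT by edgeR, beside 6.65% of all genes. None was called lower in that fit. The median over the list was 2.08, beside -0.05 for all genes. H2-D1, a classical class I heavy chain, had 4486 and 2686 against 644 and 470 CPM (2.69 ± 0.54, edgeR adjusted p = 0.0419). H2-Q4, a Q region heavy chain, had 238 and 149 against 35.9 and 25.3 CPM (2.66 ± 0.39, edgeR adjusted p = 0.0251). Tap2, a chain of the peptide transporter encoded beside the class II genes, had 161 and 104 against 31.6 and 21.4 CPM (2.32 ± 0.38, edgeR adjusted p = 0.0292), and H2-T23 281 and 266 against 71.6 and 44.7 CPM (2.23 ± 0.36, edgeR adjusted p = 0.0280). Class I heavy chains are near copies of each other, so the split of their reads is uncertain. B2m, the light chain, stood at 1.15 ± 0.44 (edgeR adjusted p = 0.145), and the chaperone Calr at -1.84 ± 0.52 (edgeR adjusted p = 0.0833). DESeq2 called B2m higher (DESeq2 adjusted p = 0.00016) and Calr lower (DESeq2 adjusted p = 0.00034). Both limma fits on FPKM also called Calr lower. In liver the median of the 16 was 0.35, and 0 were called.

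Markers of macrophages and dendritic cells were, like the classical chains, higher in KO-labelled eWAT. The 12 macrophage markers summed to 1766 and 739 CPM in KO-labelled eWAT against 484 and 262 CPM in WT-labelled eWAT, with 3 called higher (Adgre1, Csf1r and Cd163, beside 6.65% of all genes) and none at 0. The 10 dendritic cell markers summed to 114 and 72.6 against 47.1 and 19.8 CPM, with 2 called higher (Clec10a and Zbtb46, beside the same 6.65%). Clec10a alone made up 59.2 and 43.3 against 7.56 and 4.67 CPM, while Ccr7 and Flt3 had lower fitted levels in KO-labelled eWAT with overlap (-1.97 and -0.38 on the log2 scale, neither called). The 8 B cell markers summed to 17.9 and 8.6 against 78.3 and 1.5 CPM, and Ms4a1, Pax5 and Blk were at 0 in WT-labelled eWAT replicate 2. Within WT-labelled eWAT the macrophage, dendritic cell, B cell and T cell sums were all higher in replicate 1, as was the class II sum. These 2 libraries therefore single out no list. In liver the macrophage sums were 399 and 256 against 332 and 193 CPM, with overlap, and the dendritic cell sums 6.1 and 6.0 against 3.8 and 3.5 CPM. The B cell sums in liver were 8.88 and 4.05 against 3.40 and 1.63 CPM and the T cell sums of 7 markers 6.05 and 3.86 against 2.23 and 1.74 CPM, both without overlap and with 3 markers each tested, all higher and none called. The part of these cells in the genotype differences was not tested.

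Set against these lists, class II per macrophage marker overlapped between genotypes in eWAT. Summed counts of the 7 members were 2.58 and 1.91 times those of the macrophage markers in KO-labelled eWAT and 2.17 and 1.72 times in WT-labelled eWAT, with overlap. In liver they were 0.678 and 0.570 against 0.312 and 0.328 times, without overlap, and lower than in eWAT. Per B cell marker they were 30.5 and 36.1 against 30.4 and 38.7 times in liver, with overlap, and 255 and 164 against 13.4 and 294 times in eWAT. Per dendritic cell marker they were 39.9 and 19.5 against 22.2 and 22.7 times in eWAT. Per pan-leukocyte marker the ratio was 6.37 and 5.44 in KO-labelled eWAT and 0.371 and 0.224 in WT-labelled eWAT, a ratio of means of 19.9. Cd52 and Lcp1 made up most of that marker sum in the latter libraries, and without them the ratio of means fell to 1.61, still without overlap at 8.79 and 7.17 against 3.25 and 6.68. These are ratios of sums over genes of different cells and give no level per cell.

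**Figure D5:**
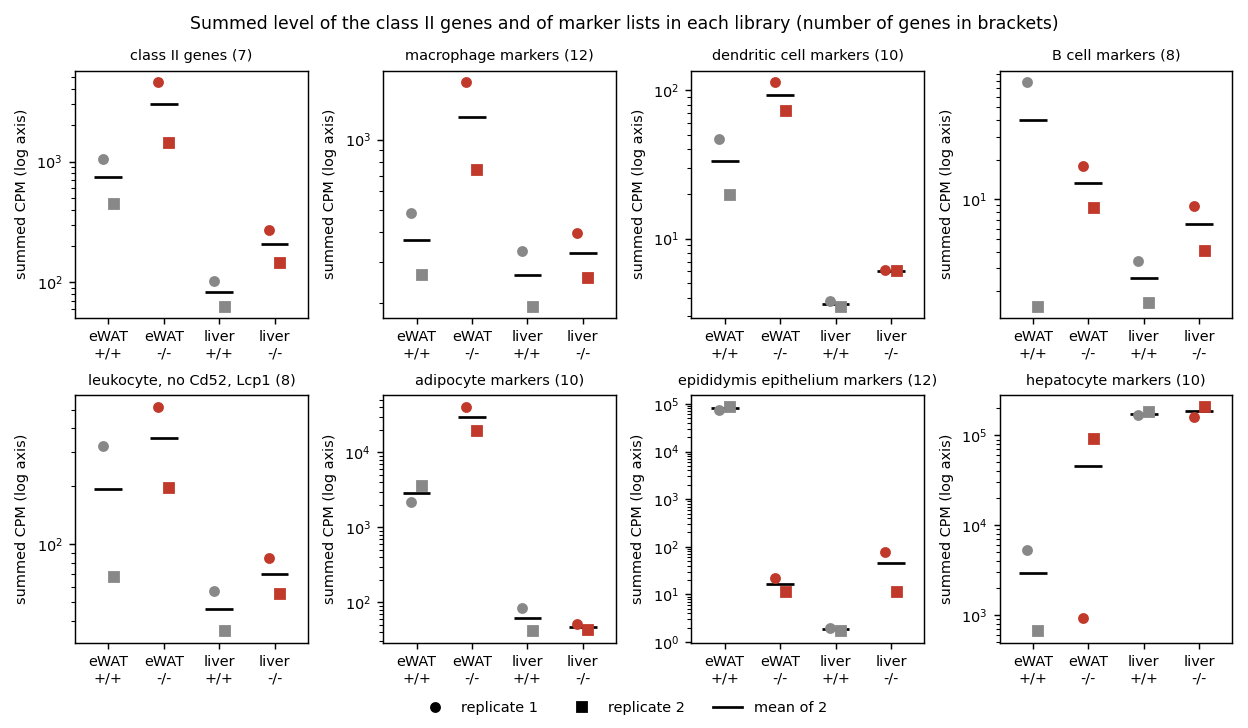
Summed CPM, per library total, of the 7 members and of 7 marker lists on log axes in each library (circles and squares, replicates 1 and 2; bars, means of 2; grey, WT-labelled; red, KO-labelled). In eWAT the class II sum and the macrophage sum (1766 and 739 against 484 and 262 CPM) are both higher in KO-labelled libraries, while epididymis markers are high only in the WT-labelled eWAT libraries and hepatocyte markers are high in KO-labelled eWAT replicate 2.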

How the data were processed

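RNA-seq libraries of liver and eWAT (2 labelled Crtc1-/- and 2 labelled Crtc1+/+ each) were analysed. The authors deposited estimated counts per gene, not normalized, and FPKM for the same genes; the labels list HISAT, Bowtie2 and GRCm38.p6 without their roles, and strandedness is not given in the sources used here. Counts were rounded, filtered by filterByExpr, scaled by TMM and tested within tissue, and for tissue comparisons over all 8 libraries, by edgeR 4.0.16 in R 4.3.3 (quasi-likelihood, Benjamini-Hochberg over all genes tested). The study had used limma on normalized values. Standard errors were the log2 fold change over the root of the F statistic. Correlations used log2 CPM with a prior count of 2.

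Alternatives were DESeq2 1.42.0, limma 3.58.1 on quantile-normalized log2(FPKM + 1) and log2(FPKM + 0.1), other scalings, no filter, a replicate block, 1 fit of 8 libraries, and each library left out. Tests were tried on simulated data. Genes of each fixed list were named where called, up to 4 a tissue, with the 2 of highest mean CPM. The members and lists were chosen with earlier results of these data known. The symbol of March8 had become a date in the tables and was matched by its NCBI Gene number. Mice of each group were separate animals according to the study's methods, which imply that liver and eWAT came from the same mice.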

Additional observations from a re-analysis of the deposited data

Results flagged for a closer look

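For 4 genes of the pathway the genotype difference itself differed between tissues in the fit of all 8 libraries. For Tap2 it was larger in eWAT by 2.50 ± 0.44 on the log2 scale (edgeR adjusted p = 0.0231). For Irf1 the difference was 1.93 ± 0.39 (edgeR adjusted p = 0.0350) and for Rfxap 1.66 ± 0.36 (edgeR adjusted p = 0.0426). For H2-Q4, whose reads may be shared with other class I genes, it was 1.84 ± 0.43 (edgeR adjusted p = 0.0498). In all 4, both KO-labelled eWAT libraries exceeded both WT-labelled ones, the libraries whose epididymis markers summed to 75100 and 87627 CPM. The part of those markers was not tested. All 4 calls were lost with library-size scaling, when any 1 liver library was left out and without WT-labelled eWAT replicate 2 (Tap2 2.24, edgeR adjusted p = 0.0894), those of Rfxap, Irf1 and H2-Q4 also with upper-quartile scaling and without WT-labelled eWAT replicate 1, and those of Rfxap and H2-Q4 with the replicate block. That of H2-Q4 was lost without the filter and in limma with 0.1 added as well, and that of Rfxap without KO-labelled eWAT replicate 2 (1.67). No group held enough libraries for a test of single outlying values.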

How the results depend on the processing

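The count of members called in eWAT (0 of 7) was 4 by DESeq2, 3 with all 8 libraries in 1 fit and 2 without the filter, and 0 to 4 with each library left out. In liver (0 of 7) it was 4 by DESeq2, 3 without the filter, 2 with the replicate block, and 0 to 4 with each library left out. For eWAT against liver it was 7 with library-size scaling both in WT-labelled (4 of 7) and in KO-labelled libraries (5 of 7), and 0 to 6 in each on leaving out a library. The interaction called 0 under every alternative run. The labels do not tie replicate numbers to animals, and deviations of same-numbered libraries correlated at 0.0086 in eWAT, 0.0516 in liver, and 0.152 (WT-labelled) and 0.0356 (KO-labelled) between tissues, so the numbers were not taken as pairs. With the replicate block 0 members were called in eWAT, 6 and 6 between tissues (H2-Ab1 and Cd74 gained in WT-labelled libraries, H2-DMa in KO-labelled ones) and 0 in the interaction, and the eWAT calls of Ctsz, Irf4, Irf1, Ifngr1, Cd274, H2-D1, H2-Q4, Tap2 and H2-T23 were lost. Cd274, H2-D1 and Ifngr1 also lost theirs with library-size and upper-quartile scaling, and Irf1 with the former. In limma Ifngr1 lost its call with 0.1 and with 1 added, and Irf1 with 0.1 added. Calls of Cd274 and Ifngr1 were lost without either KO-labelled eWAT library, and that of Irf4 without KO-labelled eWAT replicate 2. The class II to leukocyte ratio between genotypes in eWAT (19.9) was 1.16 with the macrophage list, 1.32 with the dendritic cell list, 1.36 with the B cell list, whose 2 WT-labelled libraries lay apart (13.4 and 294), and 1.61 without Cd52 and Lcp1, a choice made after seeing the data, as was leaving epididymis and hepatocyte markers out of the totals, which left 0 members called.

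Signs turned for small differences, given as log2 values; causes were not tested. In eWAT, H2-DMa was -0.0072 with library-size scaling and -0.15 and -0.14 in limma with 0.1 and 1 added, and -0.71 to 0.79 with a library left out. So were H2-DMb1 (-0.39 to 1.19), Nfyc (-0.31 to 0.080) and Hspa8 (-0.0067 to 0.73), and H2-Ob was 0.78 and 0.31 in limma, 0.097 with the block and -1.08 to 1.56. In liver, Ciita was -0.0026 and -6.28e-05 in limma, Ctsz -0.064 in both limma fits and -0.20 to 0.27 with a library left out, Ctsb -0.0062 with the block and -0.32 to 0.30, and Ifngr1 0.0044 by DESeq2, 0.054 and 0.082 with library-size and upper-quartile scaling, 0.076 and 0.065 in limma, 0.0024 with the block and -0.14 to 0.12. Leaving out a library gave -0.40 to 0.035 for Ctsd, -0.078 to 0.54 for Rfxank, -0.44 to 0.17 for Irf1, -0.32 to 0.062 for Usf2, -0.43 to 0.12 for Jak1 and -0.094 to 0.64 for H2-T23. Ciita between tissues in WT-labelled libraries was -0.97 and -0.28 in limma. In the interaction, leaving out a library gave -1.30 to 0.42 for H2-DMb1, -0.032 to 1.57 for Cd74, -0.31 to 1.67 for Ciita and -0.032 to 1.60 for the median of the members.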
